A study of Mus musculus with 8 samples.

Results

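The homeostatic microglia genes are the set by which resting microglia of the healthy brain are recognised. The 9 members examined here were Cx3cr1, P2ry12, P2ry13, Tmem119, Csf1r, Sall1, Siglech, Gpr34 and Selplg, taken by name from that signature. All 9 were among the 25834 genes of the table, and all 9 passed the low-count filter that left 16251 genes for testing. They were followed in RNA sequencing libraries of hippocampus from 4 control and 4 SAP97-cKO male mice.

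SAP97 is the scaffold protein encoded by Dlg1. SAP97-cKO mice carried the genotype Nestin-cre+/-; SAP97fl/fl, in which Cre recombinase, driven by the Nestin promoter of neural progenitors, removes the floxed gene from neurons and macroglia. Microglia descend from yolk sac progenitors and not from the neural lineage. Controls were male littermates, pooled by the study from animals with Nestin-cre alone, with the floxed alleles alone or with neither, and the sources used here do not tell which control library had which genotype, nor the age of the sequenced animals. Each library was made from the hippocampus of 1 animal, with RNA drawn from 1 hemisphere per the study's methods, so it held RNA of every hippocampal cell type.

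Microglia are the resident macrophages of the brain. In the undisturbed tissue they survey their surroundings with receptors for a neuronal chemokine, for nucleotides leaking from nearby cells and for the growth factors that keep them alive, and they hold a transcriptional identity that depends on PU.1, SALL1 and TGF-beta signalling. The same genes are known to be lowered when microglia respond to injury, amyloid or myelin damage, which makes them a common readout of microglial state.

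After depth equalisation by the authors, the libraries held between 37388177 and 37426572 gene counts, a range of 0.103% of the smallest total. The targeted gene followed the labels: normalised Dlg1 counts were 3983 to 4691 in the controls and 2009 to 3065 in SAP97-cKO, with no overlap (log2 fold change -0.86, SE 0.12, adjusted p = 0.143 in the edgeR quasi-likelihood test after Benjamini-Hochberg correction). These counts cover all exons of Dlg1, so they do not measure how completely the gene was disrupted. For the single exon it checked, the study reported a far larger fall. Without control 2, SAP97-cKO 3 or SAP97-cKO 4, fits in which 0 genes of the whole table passed, the Dlg1 log2 fold change was -0.83, -0.80 and -0.78 and its adjusted edgeR p was 0.424, 0.524 and 0.346. Markers of meningeal fibroblasts, whose summed level did not overlap between groups (335 to 610 CPM, counts scaled to library size, in controls and 188 to 318 in SAP97-cKO), were lower in the knockout libraries, while the summed level of the 9 members overlapped, at 298 to 384 and 304 to 383 CPM. Among markers of blood leukocytes, 8 of 10 genes were too low to test, beside 9583 of the 25834 genes of the table. That list summed to between 0.860 and 2.41 CPM. The 2 tested genes had a median log2 fold change of -1.06. In edgeR 0 of them had an adjusted p under 0.25 and 1 had an unadjusted p under 0.05, beside 0.295% and 11.7% of all tested genes.

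The bases just before the start site are shown for the receptors and the lectin with a RefSeq promoter window. Whether these sequences bear on the members' levels in the libraries was not tested. Of the 9 members, 5 had a window in the RefSeq table (GRCm38.p6): P2ry12, P2ry13, Cx3cr1, Siglech and Sall1. The 250 bases before the start site are given 5′ to 3′ along the gene's strand. Capitals mark matches to 4 motifs searched on both strands. These were the PU-box GAGGAA bound by PU.1, the RUNX motif TGTGGT, the AP-1 motif TGANTCA and a loose MEF2 motif. The loose MEF2 motif allowed any base at its middle positions.
P2ry12, chr3:59262986-59263235, minus strand: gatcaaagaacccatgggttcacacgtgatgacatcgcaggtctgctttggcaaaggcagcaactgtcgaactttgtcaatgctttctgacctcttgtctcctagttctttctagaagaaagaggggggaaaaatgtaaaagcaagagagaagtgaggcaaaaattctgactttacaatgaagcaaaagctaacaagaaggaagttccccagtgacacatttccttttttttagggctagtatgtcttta
P2ry13, chr3:59210883-59211132, minus strand: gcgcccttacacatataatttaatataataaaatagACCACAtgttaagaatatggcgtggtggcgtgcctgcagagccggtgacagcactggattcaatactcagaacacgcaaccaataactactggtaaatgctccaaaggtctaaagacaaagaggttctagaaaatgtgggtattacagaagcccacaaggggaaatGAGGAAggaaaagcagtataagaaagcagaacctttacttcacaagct
Cx3cr1, chr9:120068297-120068546, minus strand: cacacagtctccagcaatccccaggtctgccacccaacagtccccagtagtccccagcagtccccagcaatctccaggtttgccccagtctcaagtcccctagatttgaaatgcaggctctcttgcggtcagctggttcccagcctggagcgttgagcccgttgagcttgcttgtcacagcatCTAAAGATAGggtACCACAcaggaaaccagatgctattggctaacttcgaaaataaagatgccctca
Siglech, chr7:55767934-55768183, plus strand: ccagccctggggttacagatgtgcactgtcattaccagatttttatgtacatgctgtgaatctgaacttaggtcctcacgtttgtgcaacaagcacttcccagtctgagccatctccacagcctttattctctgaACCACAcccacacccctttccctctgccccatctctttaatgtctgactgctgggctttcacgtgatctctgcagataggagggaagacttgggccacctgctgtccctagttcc

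P2ry13 held the PU-box 48 bases before its start and the RUNX motif, read on the opposite strand as ACCACA, 214 bases before it. Cx3cr1 held the RUNX motif on the opposite strand 54 bases before its start and a match to the loose MEF2 motif, CTAAAGATAG, 67 bases before it. Siglech held the RUNX motif on the opposite strand 115 bases before its start. The P2ry12 window and the 3 windows of Sall1 held none of the 4 motifs. Over all 32851 windows of this length, 23.3% held the PU-box, 14% the RUNX motif, 6.75% the AP-1 motif and 3.20% the MEF2 motif, and no matches overlapped one another in the windows shown. These are matches of letters and not measured binding.

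The members lie on 7 chromosomes (GRCm38, GENCODE M21). P2ry12 (ENSMUSG00000036353; chromosome 3, 59216272 to 59262871, minus strand) and P2ry13 (ENSMUSG00000036362; chromosome 3, 59207892 to 59210882, minus strand) are neighbours 5389 bases apart, and both lie inside Med12l on the other strand. Tmem119 (ENSMUSG00000054675; chromosome 5, 113793729 to 113800516, minus strand) and Selplg (ENSMUSG00000048163; chromosome 5, 113818536 to 113832644, minus strand) form another neighbouring pair, with a gap of 18019 bases. Cx3cr1 (ENSMUSG00000052336) is annotated on chromosome 9, 119901616 to 120069879, minus strand. Siglech (ENSMUSG00000051504) is on chromosome 7, 55768178 to 55778925, plus strand. Sall1 (ENSMUSG00000031665) is on chromosome 8, 89027235 to 89044162, minus strand. Gpr34 (ENSMUSG00000040229) is on chromosome X, 13632089 to 13640858, plus strand, inside Cask on the other strand. Csf1r (ENSMUSG00000024621) is on chromosome 18, 61100598 to 61132149, plus strand, where 873 of its exon bases, or 15.1%, are shared with Hmgxb3 on the other strand. The sources used here do not say whether the counting used strand, so reads from the shared bases cannot be assigned to Csf1r with certainty.

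None of the 9 homeostatic genes passed the test for a difference between SAP97-cKO and control hippocampus. With edgeR's quasi-likelihood test at an adjusted p under 0.25, the level used by the study, 0 of 9 passed, beside 0.295% of all tested genes, and the members' adjusted p-values ran from 0.621 to 0.922. At an unadjusted p under 0.05 the count was again 0 of 9 in edgeR, in limma-voom and in DESeq2, beside 11.7%, 11.5% and 12.6% of all genes. At the adjusted threshold limma-voom and DESeq2 also called 0 of 9, beside 0.308% and 6.36% of all genes. In no member did the control and SAP97-cKO libraries separate, beside 6.25% of all genes. Fitted log2 fold changes of SAP97-cKO over control ran from -0.18 to 0.14 with a median of 0.04, 6 above 0 and 3 below, while the median of all tested genes was -0.01 with 47.2% above 0. An estimate near 0 is informative only with its interval. In this fit of genotype alone, the 95% interval of all 9 members lay within 1.6-fold in either direction, beside 73.9% of all genes. Larger changes were thus outside the intervals of this fit and smaller ones were not. In bulk tissue, fewer microglia and less RNA per microglial cell cannot be told apart.

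**Figure D1:**
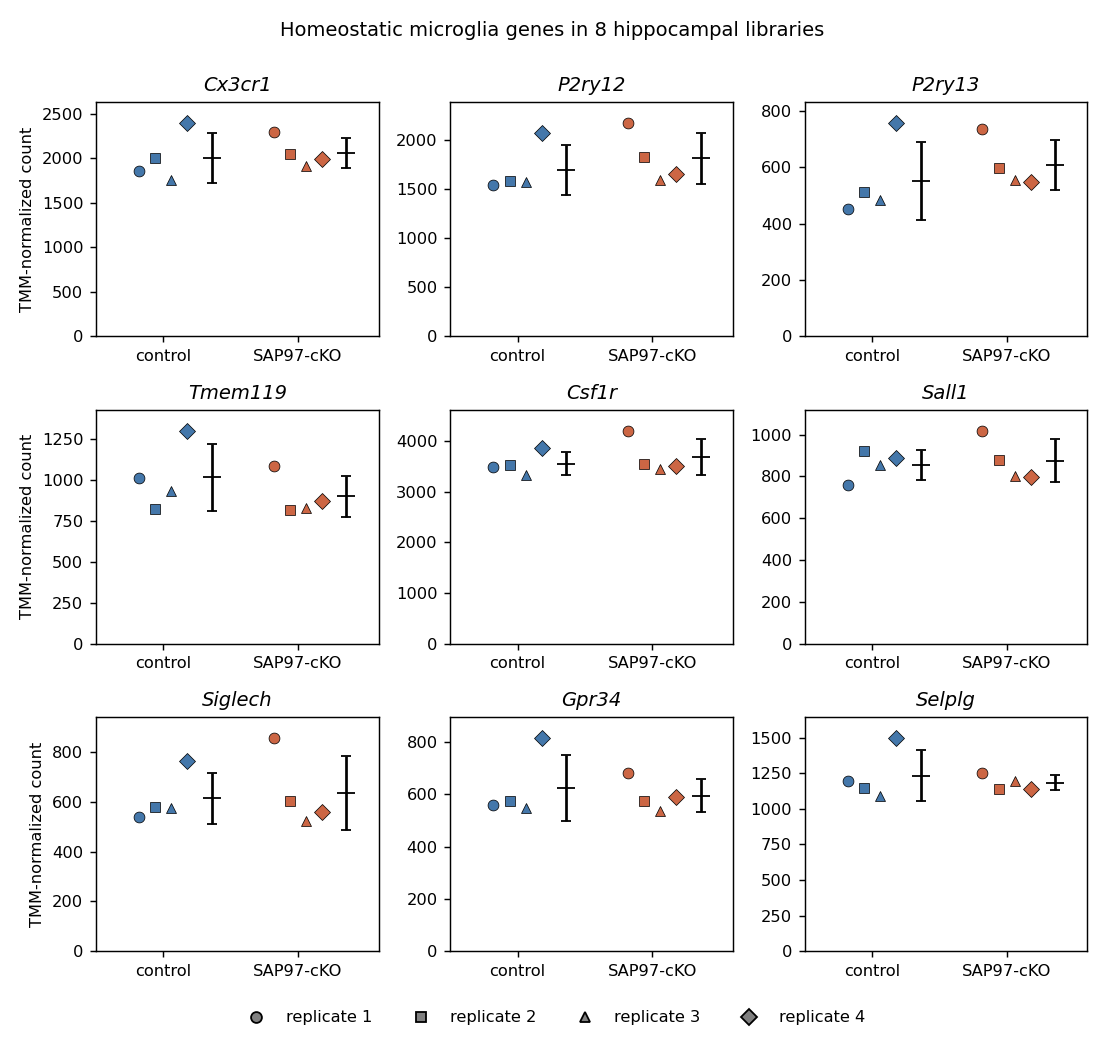
TMM-normalised counts (vertical axis, from 0) of the 9 homeostatic genes in the 4 control and 4 SAP97-cKO libraries, 1 symbol per library, with the group mean and SD as a bar beside each group. Control 4 and SAP97-cKO 1 stand high in most panels and the groups overlap in all 9.

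The receptors that read neuronal and nucleotide signals come first. Cx3cr1, the receptor for the neuronal chemokine fractalkine, had normalised counts of 1858, 2006, 1754 and 2398 in controls 1 to 4 and of 2303, 2047, 1910 and 1990 in SAP97-cKO 1 to 4. The highest and the lowest library were both controls, so the knockout range lay inside the control range. The means were 2004 ± 282 and 2062 ± 170 (SD, n = 4 each), 103% of control, and the log2 fold change of 0.04 (SE 0.10, 95% interval -0.18 to 0.27) had an adjusted p of 0.885 in edgeR's test.

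P2ry12, the ADP receptor through which microglial processes move toward damage, gave 1540, 1585, 1571 and 2074 normalised counts in controls 1 to 4 and 2176, 1835, 1595 and 1653 in SAP97-cKO 1 to 4. Controls 1 to 3 lay close together and below all knockout libraries, and control 4 lay above 3 of them. The means of 1693 ± 255 and 1814 ± 262 (SD, n = 4 each) differed by less than either SD, with a log2 fold change of 0.10 (SE 0.12, interval -0.17 to 0.37) and an adjusted p of 0.746 in edgeR.

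P2ry13, a related ADP receptor, gave 452, 512, 485 and 758 normalised counts in the controls and 738, 598, 554 and 549 in SAP97-cKO, in replicate order. As for P2ry12, controls 1 to 3 lay below all knockout libraries and control 4 above them. This was the highest fold change among the members, 0.14 on the log2 scale (SE 0.17, interval -0.23 to 0.52, adjusted p = 0.727 in edgeR), and the means were 552 ± 140 and 610.0 ± 88.3 (SD, n = 4 each). Leaving out control 4 moved P2ry13 to a log2 fold change of 0.34 (edgeR unadjusted p = 0.018, adjusted p = 0.335) and P2ry12 to 0.21, and in that fit, where 0 of 9 members passed the adjusted threshold, 0.195% of all genes passed it and 11.9% had an unadjusted p under 0.05. Leaving out SAP97-cKO 1 moved them the other way, P2ry13 to 0.04 (edgeR unadjusted p = 0.804) and P2ry12 to 0.0068 (unadjusted p = 0.956).

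Gpr34, a receptor for lysophosphatidylserine, gave 559, 575, 548 and 814 normalised counts in the controls and 683, 573, 535 and 591 in SAP97-cKO. Control 4 again stood apart, and the other 7 libraries ran from 535 to 683. The means were 624 ± 127 and 595.6 ± 62.9 (SD, n = 4 each), with a log2 fold change of -0.07 (SE 0.14, interval -0.37 to 0.24, adjusted p = 0.860 in edgeR).

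Csf1r, the receptor tyrosine kinase for CSF1 and IL34 on which microglial survival depends, had the highest counts of the set. It gave 3486, 3530, 3339 and 3868 normalised counts in the controls and 4207, 3560, 3453 and 3511 in SAP97-cKO. Here SAP97-cKO 1 was the library that stood apart, and the other 3 knockout libraries lay among the controls. The means were 3556 ± 224 and 3683 ± 353 (SD, n = 4 each), and the interval of the log2 fold change, 0.05 (SE 0.080, -0.13 to 0.23, adjusted p = 0.808 in edgeR), was the narrowest of the 9. Hmgxb3, which shares exon bases with Csf1r, had a log2 fold change of 0.07 (SE 0.070, adjusted p = 0.672 in edgeR).

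The remaining surface proteins are used mainly as microglial markers. Tmem119, a membrane protein that in the brain separates microglia from other macrophages, gave 1008, 821, 930 and 1298 normalised counts in the controls and 1082, 814, 828 and 867 in SAP97-cKO. Control 4 was the highest library and 3 knockout libraries fell in a narrow band at the low end, which control 2 shared. Tmem119 had the lowest fold change of the set, with means of 1014 ± 204 and 898 ± 125 (SD, n = 4 each), 88.5% of control, and a log2 fold change of -0.18 (SE 0.14, interval -0.49 to 0.14, adjusted p = 0.621 in edgeR). Without control 4 the log2 fold change was -0.035, and without SAP97-cKO 1 it was -0.27 (edgeR adjusted p = 0.928 and 0.443).

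Siglech, a sialic acid-binding lectin, gave 539, 580, 574 and 766 normalised counts in the controls and 854, 604, 522 and 561 in SAP97-cKO. The highest and the lowest library were both knockouts, so the control range lay inside the knockout range, and the log2 fold change was 0.05 (SE 0.17, interval -0.32 to 0.41, adjusted p = 0.922 in edgeR). Selplg, which encodes the selectin ligand PSGL-1, gave 1196, 1145, 1093 and 1494 normalised counts in the controls and 1251, 1141, 1195 and 1142 in SAP97-cKO. Its knockout libraries were the tightest of any member, at 1182 ± 52.6 against 1232 ± 180 (SD, n = 4 each), with a log2 fold change of -0.06 (SE 0.098, interval -0.28 to 0.16, adjusted p = 0.821 in edgeR).

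Sall1, the zinc finger transcription factor that holds microglial identity, gave 757, 920, 854 and 889 normalised counts in the controls and 1018, 879, 802 and 799 in SAP97-cKO. It was the only member for which control 4 was not the highest control, and the groups overlapped over most of their range. The means were 855.0 ± 70.4 and 875 ± 103 (SD, n = 4 each), with a log2 fold change of 0.03 (SE 0.098, interval -0.19 to 0.25, adjusted p = 0.908 in edgeR). Two-sided exact permutation tests of the normalised counts gave p-values between 0.43 and 0.80 for the 9 members, where 4 against 4 libraries allow no p below 0.0286.

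**Figure D2:**
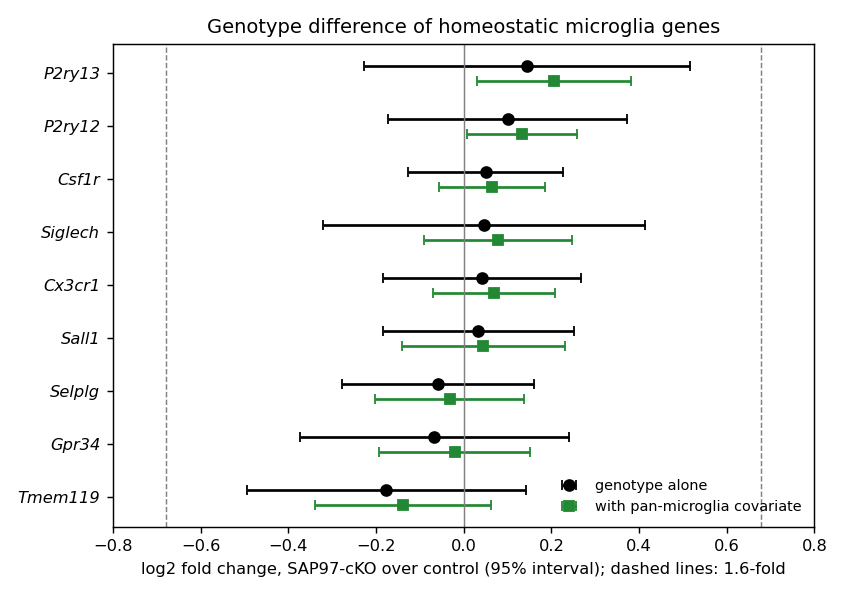
Fitted log2 fold change of SAP97-cKO over control (horizontal axis) for each homeostatic gene with its 95% interval, for genotype alone (black circles) and with the pan-microglia level of each library as a covariate (green squares). All black intervals cross 0 and lie inside the dashed lines at 1.6-fold, and with the covariate the intervals of P2ry13 and P2ry12 lie just above 0.

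Levels between genes were compared per length, as RPKM, which scales counts by exon length and library size, averaged over the 8 libraries. P2ry12 was the highest at 18.4 ± 2.60 RPKM, followed by Csf1r at 16.7 ± 1.30, Cx3cr1 at 12.1 ± 1.29 and Tmem119 at 11 ± 1.95 (SD, n = 8). Gpr34 at 7.80 ± 1.20 RPKM and Selplg at 7.55 ± 0.784 followed (SD, n = 8). P2ry13 at 6.14 ± 1.19, Siglech at 4.94 ± 0.942 and Sall1 at 4.39 ± 0.417 RPKM were the lowest (SD, n = 8).

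This order was firm only in places. Csf1r exceeded Cx3cr1 in 8 of 8 libraries without overlap of their ranges, by a ratio of 1.26 to 1.49. P2ry12 exceeded Csf1r in 8 of 8 libraries, but by as little as 1.00 times, and their ranges overlapped. The mean RPKM of Cx3cr1 was above that of Tmem119 and that of Gpr34 above that of Selplg, yet the order held within only 5 and 6 of 8 libraries, so these pairs were not separated beyond their spread. Siglech and Sall1 were ordered alike in 7 of 8 libraries. Between the neighbouring ADP receptors, the RPKM ratio of P2ry12 to P2ry13 was 3.10 ± 0.283 in controls and 2.95 ± 0.081 in SAP97-cKO (SD, n = 4 each, exact permutation p = 0.343). For the other neighbours, the ratio of Tmem119 to Selplg was 1.51 ± 0.128 in controls and 1.40 ± 0.142 in SAP97-cKO (SD, n = 4 each, exact permutation p = 0.286).

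**Figure D3:**
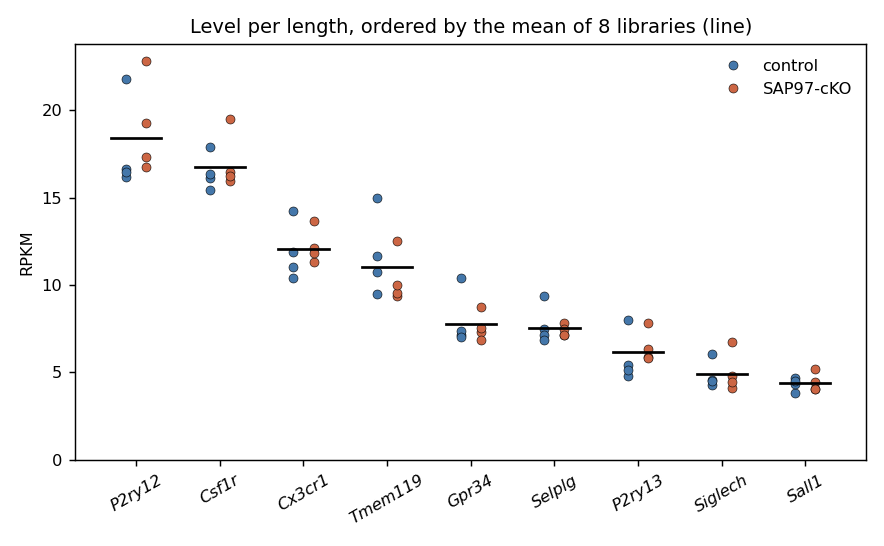
RPKM (vertical axis, from 0) of the 9 homeostatic genes in the 8 libraries, each dot a library (blue, control and red, SAP97-cKO), ordered by the mean of all 8 (line). P2ry12 and Csf1r lie at the top with overlapping ranges, and Siglech and Sall1 at the bottom.

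Most of the spread of the members lay within the groups and ran through the same libraries. Control 4 was the highest control for 8 of the 9 members and SAP97-cKO 1 was the highest knockout for all 9, beside 32.6% and 31.1% of all tested genes. Against the mean of the other 3 libraries of its group, control 4 was raised most in P2ry13 (ratio 1.57), Gpr34 (1.45) and Tmem119 (1.41) and least in Sall1 (1.05). SAP97-cKO 1 was raised most in Siglech (ratio 1.52) and least in Selplg (1.08). The median ratios over the members were 1.32 for control 4 and 1.23 for SAP97-cKO 1, where all tested genes had medians of 0.986 and 0.999.

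The same pair of libraries was high in a separate list of 25 pan-microglia genes, taken as general microglial markers, which include Ctss and the C1q genes. Whether these genes keep their level across microglial states was not tested. Control 4 was the highest control for 25 of 25 and SAP97-cKO 1 the highest knockout for 24 of 25, with median ratios of 1.32 and 1.27. The mean centred log2 level of the 9 members was 0.285 in control 4 and 0.249 in SAP97-cKO 1, against -0.124 to -0.025 in the other 6 libraries, and that of the pan-microglia list was 0.302 and 0.233, against -0.156 to -0.052. The astrocyte marker list also stood higher in these libraries, at 0.229 and 0.147 against -0.131 to 0.017, and the oligodendrocyte list reached 0.486 and 0.310 against -0.533 to 0.429, whereas the neuron list lay at -0.133 and -0.030 against -0.089 to 0.135. What set these libraries apart was not tested.

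**Figure D4:**
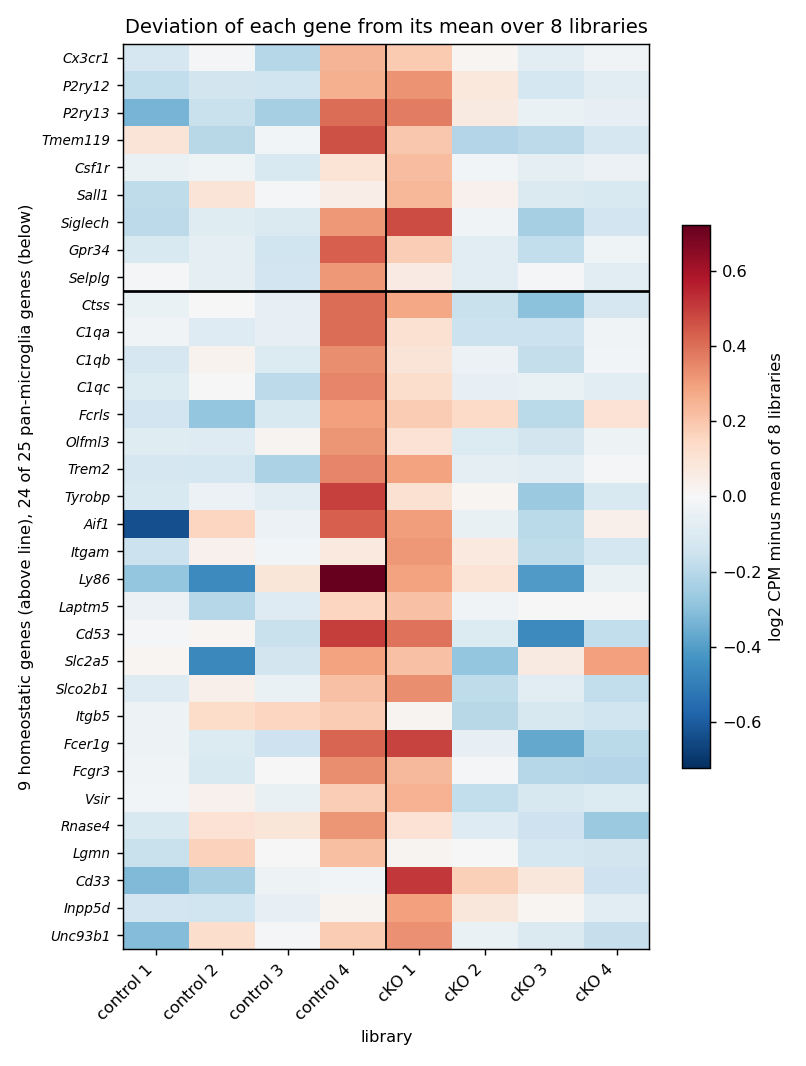
Log2 CPM of each gene minus its mean over the 8 libraries (colour) for the 9 homeostatic genes above the line and 24 of the 25 pan-microglia genes below it, with controls left of the vertical line and SAP97-cKO right of it. The columns of control 4 and SAP97-cKO 1 are red for most genes of both lists.

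As a description of this shared variation, the 36 pairs of members had a median Pearson r of 0.81 over the 8 libraries (range 0.24 to 0.96). Without control 4 and SAP97-cKO 1 the median over 6 libraries was 0.31 (range -0.87 to 0.94), so much of the likeness came from those libraries, and all points share library, depth and cell makeup. P2ry12 tracked the mean of the other 8 members most closely (r = 0.95 over 8 libraries). Sall1 (r = 0.64) and Tmem119 (r = 0.72) did so least, and Tmem119 had r = -0.81 and Selplg r = -0.30 over the 6 other libraries.

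Among 14056 genes with a mean of at least 1 CPM, the gene whose log2 level was most like the mean of the members over the 8 libraries was Trem2, the lipid-sensing receptor of microglia (r = 0.97, and 0.52 over the 6 other libraries). Dhrs4, a carbonyl reductase, followed with r = 0.96, and kept r = 0.82 over the 6 other libraries. Nckap1l, a haematopoietic subunit of the actin-regulating WAVE complex, had r = 0.96 but -0.09 over the 6 other libraries, and Lair1, an inhibitory receptor of leukocytes, had r = 0.95 and 0.38. The astrocyte connexin gene Gja1 and the BMP receptor gene Bmpr1b, each with r = 0.95 (0.45 and 0.38 over the 6 other libraries), were also among the 8 genes most alike. 4933431E20Rik (r = 0.95) and Epb41l4aos (r = 0.94) completed them, with r of -0.13 and -0.15 over the 6 other libraries.

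Taking the pan-microglia level of each library into the fit asks whether the homeostatic genes differed relative to the genes of that list. With that covariate 0 of 9 members passed the adjusted threshold, beside 1.05% of all genes, and 2 of 9 had an unadjusted p under 0.05, beside 13.2%. P2ry13 had a log2 fold change of 0.21 (interval 0.031 to 0.382, edgeR unadjusted p = 0.026, adjusted p = 0.329) and P2ry12 of 0.13 (interval 0.009 to 0.257, unadjusted p = 0.039, adjusted p = 0.357). Tmem119 had -0.14 (adjusted p = 0.527), and the other 6 members ran between -0.03 and 0.08. With control 4 and SAP97-cKO 1 both left out, 0 of 9 members passed beside 11.8% of all genes, and P2ry13 alone had an unadjusted edgeR p under 0.05 (log2 fold change 0.23, SE 0.088, unadjusted p = 0.031, adjusted p = 0.252), beside 17.0% of all genes.

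The pan-microglia list itself had 0 of 25 genes past the adjusted threshold, beside 0.295% of all genes, and a median log2 fold change of -0.06. Only Itgb5, an integrin subunit also made by other cell types, had an unadjusted p under 0.05, beside 11.7% of all genes (log2 fold change -0.22, adjusted p = 0.348 in edgeR). Ctss, the protease cathepsin S and one of the most abundant genes of that list, stood at 53.7 RPKM, well above every homeostatic gene per length.

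The genes that feed these receptors were taken as a list of 18 ligands and signal partners, of which 16 could be tested. Selp, which encodes P-selectin, a binding partner of the Selplg product, had 6 reads in all 8 libraries together and was not tested. None of the 16 passed the adjusted threshold, while 4 were lower and 1 was higher at an unadjusted p under 0.05, beside 7.01% and 4.73% of all genes in those directions. Cx3cl1, the neuronal ligand of Cx3cr1, was the higher one, with 20003 ± 1868 normalised counts in controls and 23305 ± 947 in SAP97-cKO (SD, n = 4 each, log2 fold change 0.22, SE 0.080, adjusted p = 0.371 in edgeR), and its groups overlapped. The summed level of the neuron marker list was also higher, at 11623 to 12821 CPM in controls and 12863 to 14480 in SAP97-cKO. Its mean centred log2 level overlapped between groups, with 0.040 in control 1 and -0.030 in SAP97-cKO 1. Of its 10 genes, 4 were higher at an unadjusted p under 0.05, beside 4.73% of all genes, and 0 passed the adjusted threshold. Snap25, Gad1 and Nefl had log2 fold changes below 0. The part of neuronal RNA in the Cx3cl1 value was not tested. The Csf1r ligands gave log2 fold changes of 0.09 for Il34 and -0.08 for Csf1.

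P2rx4 and Nt5e, both of nucleotide signalling, were among the partners whose groups did not overlap, which was so for 6.25% of all genes. P2rx4, an ATP-gated channel, ran from 377 to 419 normalised counts in controls and from 300 to 336 in SAP97-cKO (log2 fold change -0.31, adjusted p = 0.331 in edgeR). Nt5e, which converts AMP to adenosine, ran from 195 to 258 and from 128 to 190 (log2 fold change -0.36, adjusted p = 0.409). The potassium channel gene Kcnk13 and the TGF-beta receptor gene Tgfbr2 had log2 fold changes of -0.29 and -0.33, each with an adjusted p of 0.387.

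Of 12 myeloid transcription factors, 0 passed the adjusted threshold, beside 0.295% of all genes, and the median log2 fold change was 0.03. The most abundant per length were Mef2a (log2 fold change 0.07) and Mef2c (0.41, adjusted p = 0.547 in edgeR). Spi1, which encodes PU.1, had 0.02, and Irf8 had -0.21. Maf was the only one at an unadjusted p under 0.05, beside 11.7% of all genes (log2 fold change -0.22, adjusted p = 0.372 in edgeR).

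The genes that microglia are known to raise as the homeostatic set falls were also counted. Of 19 disease-associated microglia genes, 17 were tested, 2 fell and 0 rose at the adjusted threshold, beside 0.283% and 0.0123% of all genes in those directions. Spp1, which encodes the secreted protein osteopontin, fell from 876 ± 193 to 231 ± 110 normalised counts (SD, n = 4 each, log2 fold change -1.92), and Clec7a, the receptor dectin-1, fell from 31.9 ± 6.41 to 8.15 ± 2.91 (SD, n = 4 each, log2 fold change -1.96), both with an adjusted p of 0.143 in edgeR. The study listed both genes as changed in these same libraries. This gene list was chosen with earlier results of these data known, so its count is not independent evidence. Without control 2, SAP97-cKO 3 or SAP97-cKO 4, 0 genes of the whole table passed: the adjusted p of Spp1 was then 0.427, 0.524 and 0.346 and that of Clec7a 0.427, 0.524 and 0.424 in edgeR, and Clec7a also missed the threshold without control 4 (0.259). With the meningeal fibroblast level of each library as a covariate, a level that in its summed form separated the groups, their log2 fold changes were -0.98 and -2.26 and 0 of the 16251 genes passed. The median of the 17 was -0.17, and the most abundant, Apoe and Fth1, did not pass.

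Markers of macrophages outside the parenchyma were taken as a separate list. Among 9 tested border-associated macrophage genes 0 passed the adjusted threshold, beside 0.295% of all genes, and the median log2 fold change was -0.41. The most abundant per length, the scavenger receptor gene Stab1 and the chemokine gene Pf4, had 0.02 and -0.38 (adjusted p = 0.953 and 0.690 in edgeR). Lyve1 and Mrc1, receptors of perivascular and meningeal macrophages, were the 2 of 9 at an unadjusted p under 0.05, with -1.09 (adjusted p = 0.331 in edgeR) and -0.61 (adjusted p = 0.383). Of all genes, 7.01% were lower at that unadjusted level. That list summed to 25.9 to 35.4 CPM in controls and 19.4 to 28.4 in SAP97-cKO. In the meningeal fibroblast list 6 of 16 genes fell (Ogn, Col1a2, Slc22a6, Col3a1, Aldh1a2 and Slc6a13), beside 0.283% of all genes, and the median was -1.08, while the abundant Dcn and Igf2 had log2 fold changes of -0.0076 and -0.78 (edgeR adjusted p = 0.995 and 0.474). All 6 are among the genes the study listed as changed in these same libraries. The list was chosen with earlier results of these data known, so its share is not independent evidence. The count of 6 was 0 without control 2, SAP97-cKO 3 or SAP97-cKO 4, 3 without control 4, 12 without control 1 and 10 without SAP97-cKO 1. The count over all genes moved as well, from 48 of 16251 in the fit reported to 0 without control 2, SAP97-cKO 3 or SAP97-cKO 4. It was 32 of 16434 without control 4, 1675 of 16469 without control 1 and 711 of 16474 without SAP97-cKO 1. The part of border macrophages in the values of Spp1 and Clec7a was not tested.

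**Figure D5:**
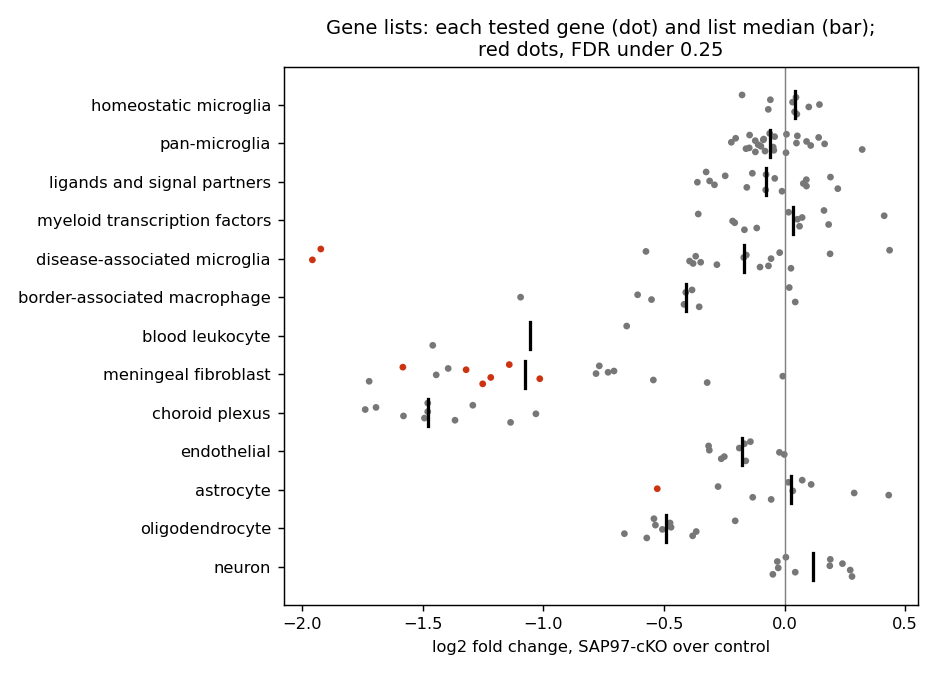
Log2 fold change of SAP97-cKO over control (horizontal axis) for every tested gene of 13 lists, each dot a gene, bars the list medians and red dots genes at an adjusted p under 0.25. The homeostatic genes lie between -0.18 and 0.14 with a median of 0.04, while the meningeal fibroblast and choroid plexus medians are -1.08 and -1.48. Of the 10 choroid plexus genes 0 passed. Their summed level varied widely within groups and overlapped, at 176 to 6888 CPM in controls and 102 to 2363 in SAP97-cKO.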

How the data were processed

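RNA from 8 hippocampi (TruSeq libraries, Illumina HiSeq) was processed by the authors with STAR 2.5.3a against mm10 (GRCm38.p5). Their pipeline dropped ribosomal and mitochondrial reads, resampled the libraries to a common depth and counted reads per Ensembl gene. These are the whole-number counts of the deposited table, and all values here were computed from them. It also holds the authors' log2 fold changes, p-values and q-values, which were not used. Resampling hides differences in sequencing depth, and the libraries held 37388177 to 37426572 counts each. The part of counting error in the spread of single genes was not tested. It is larger for genes with few reads, such as Clec7a at 8.15 ± 2.91 normalised counts in SAP97-cKO (SD, n = 4). No 2 libraries were alike within counting error (chi-square per gene 9.08 to 67.2 over all pairs), so each was counted as 1 sample.

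Counts were filtered with filterByExpr (minimum count 10, total 15), which kept 16251 genes and removed 9583, scaled by TMM (factors 0.9637 to 1.031) and tested with edgeR 4.0.16 (R 4.3.3) by a quasi-likelihood fit of genotype over both groups. P-values were adjusted over all 16251 genes by the Benjamini-Hochberg method, with the threshold of 0.25. RPKM used TMM-scaled libraries and the exon union of GENCODE M21, which matched 25696 of 25834 genes, and log2 CPM used a prior count of 2. Single values were tested by two-sided exact permutation over the 70 assignments (scipy 1.17.1). Promoter windows came from RefSeq. The fit was tested on simulated data with independent libraries and changes larger than those of the members. That test does not cover changes as small as theirs or shifts shared by the genes of a library.

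The rule for naming took the 9 members, Dlg1, the genes of each list past the threshold, the most abundant 2 of each list per length, the genes at an unadjusted p under 0.05 of the pan-microglia, ligand and transcription factor lists, and the 8 genes most like the members' mean. Csf1, Irf8, Spi1, Selp, Lyve1, Mrc1 and Hmgxb3 lie outside it and were chosen after their values were seen, and some genes that the rule takes are not reported here. The members and lists were chosen with earlier results of these data known. Alternatives were limma-voom 3.58.1, DESeq2 1.42.0, other scalings, other filters, a replicate block, covariates and leaving out libraries.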

Additional observations from a re-analysis of the deposited data

Results flagged for a closer look

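In 3 of 18 groups of 4 libraries, 1 library stood far from the others by Dixon's test, where chance flags about 1 in 20 groups and the 9 genes share their libraries. P2ry12 in control 4 had 2074 normalised counts, against 1585 in the nearest control, a gap of 0.915 of the group's range. Gpr34 in control 4 had 814 normalised counts, against 575 in the nearest control, a gap of 0.898 of the range. Csf1r in SAP97-cKO 1 had 4207 normalised counts, against 3560 in the nearest knockout, a gap of 0.858 of the range.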

How the results depend on the processing

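No homeostatic gene passed the adjusted threshold under any of the 18 alternatives run, and the lowest adjusted p was 0.252. In some of these fits 0 genes of the whole table passed: without control 2, SAP97-cKO 3 or SAP97-cKO 4, and with the meningeal covariate. Those fits could give no other count for the members. By contrast, 1675 of 16469 genes passed without control 1, and 11.8% with control 4 and SAP97-cKO 1 both left out. Of 162 fold changes, 145 kept their direction and 17 reversed. Without scaling, log2 fold changes reversed to -0.0049 for Cx3cr1, -0.013 for Sall1 and -0.00023 for Siglech, and on library totals the differences of mean normalised counts reversed to -6.87, -7.53 and -0.070. With a meningeal fibroblast covariate Siglech had -0.0014 and Tmem119 reached -0.43 (SE 0.28). With control 4 and SAP97-cKO 1 both left out, an alternative chosen after seeing the data, log2 fold changes reversed to -0.029 for Sall1, -0.0055 for Siglech, 0.015 for Gpr34 and 0.019 for Selplg. Leaving out 1 library at a time kept the direction of P2ry12 (0.0068 to 0.21), P2ry13 (0.045 to 0.34) and Tmem119 (-0.27 to -0.035), and gave log2 fold changes of -0.010 to 0.14 for Cx3cr1, -0.013 to 0.094 for Csf1r, -0.042 to 0.078 for Sall1, -0.12 to 0.17 for Siglech, -0.13 to 0.088 for Gpr34 and -0.10 to 0.048 for Selplg, and count differences of -25.0 to 190, -47.8 to 231, -28.1 to 44.9, -52.6 to 70.8, -57.8 to 34.9 and -95.7 to 38.0. Dlg1 had -0.41 with the meningeal covariate (edgeR adjusted p = 1.0) and -1.0 to -0.78 without 1 library. Over the other lists, 9 genes passed in the fit reported, 30 in DESeq2, 45 with both libraries left out, and 0 to 40 without 1 library. Of all genes, 48 passed in the fit reported, 1033 in DESeq2, 1930 with both libraries left out, and 0 to 1675 without 1 library. Same-number libraries had r from -0.062 to 0.259 and different-number libraries from -0.372 to 0.259. These overlapping ranges do not settle whether the replicate numbers pair the samples. With the replicate block, 0 members and 256 genes passed, against 48, and Dlg1 had -0.87. With 4 libraries a group, changes inside the intervals given could not be detected.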
